A study of Mus musculus and Bos taurus with 2 samples.

Results

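Polycomb repressive complex 2 (PRC2) places methyl groups on lysine 27 of histone H3, a mark of repressed genes. Its core holds a methyltransferase, EZH1 or EZH2, with EED, which binds the finished mark, and SUZ12, the scaffold. JARID2 and the Polycomb-like proteins MTF2 and PHF19 are accessory subunits that help to bring the complex to chromatin. In mouse preimplantation embryos the complex is known for the upkeep of this mark on the maternal genome and for roles in imprinting.

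The 7 genes examined were Ezh1, Ezh2, Eed, Suz12, Jarid2, Mtf2 and Phf19. Their transcripts were taken from sets of transcript models that the authors assembled from nanopore long-read cDNA, 1 library per species. A model was counted as a sense model of a gene when it carried the gene's name, in any letter case, and a class code that places it on the gene's own strand and exons (=, c, k, m, n, j or o). The members were chosen with these models in view, so their counts are a description and carry no test. The mouse library came from embryos of Slc:ICR oocytes fertilized in vitro, cultured in KSOM medium and taken at the late 2-cell stage, 36 h after insemination. The bovine library came from in vitro matured oocytes of cattle that were Japanese Black or else F1 crosses of Japanese Black × Holstein, fertilized in vitro with sperm of a Japanese Black bull and taken at the 8-cell to 16-cell stage, 72 h after insemination. Both pooled about 200 in vitro produced embryos, and the pool is the only sample of its species. Species, stage and reference annotation differ together and cannot be told apart.

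In all, 29 of the 31354 mouse sense models and 17 of the 33163 bovine sense models belonged to these genes. At least 1 sense model was found for 6 of the 7 genes in mouse and for 5 of 7 in bovine. Across all protein-coding mouse symbols of the reference table, 53.5% had one. No such share was computed for bovine, so bovine counts of genes with a sense model stand without one. No read numbers come with the models, so their depth is unknown. The absence of a model says only that none was assembled, and it does not show that a gene was silent. In pooled embryos, fewer cells with a transcript and less RNA per cell cannot be told apart. Maternal oocyte genes had a model for 8 of 8 in mouse and 7 of 8 in bovine. Being found in both libraries, they do not tell the stages apart and do not check the labels. All 10 genes of the mouse 2-cell burst had a model in mouse and 0 of 10 had one in bovine. Genes of bovine genome activation had a model for 1 of 6 in mouse and 6 of 6 in bovine. Genes were matched by symbol, and whether each symbol is used in both species was not examined. A symbol that a species does not use gives 0 in advance, so the contrast between species does not check the labels. Cumulus and granulosa markers had a model for 5 of 10 in mouse and 6 of 10 in bovine, and blood and immune markers for 2 of 5 in mouse and 3 of 5 in bovine. Of the cumulus and granulosa markers, Has2, Vcan, Ptx3, Foxl2 and Amh had 0 models in mouse, and Fshr, Inhba, Ptx3 and Amh had 0 in bovine. Those with a model had 1 or 2 each in mouse and 1 to 3 each in bovine. The part of such cells in the PRC2 models was not tested.

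Ezh2 had the most models of the 7 genes in mouse, and Eed the most in bovine. Ezh2 had 12 models in mouse and 1 in bovine, whereas Eed had 2 in mouse and 7 in bovine. Ezh1, the second methyltransferase, had 4 models in mouse and 0 in bovine. Jarid2 had 4 in each library, Mtf2 had 6 in mouse and 4 in bovine, and Suz12 had 1 in each. Phf19 had no model in either library under any class code. Set beside the whole library, 12 or more models were found for 69 mouse genes, 0.49% of the 14090 named genes with a sense model. Of the 13374 bovine genes, 627 (4.69%) had 7 models or more. The genes with a model averaged 4.83 models in mouse and 3.4 in bovine, where all named genes averaged 2.23 in mouse and 2.48 in bovine.

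**Figure D1:**
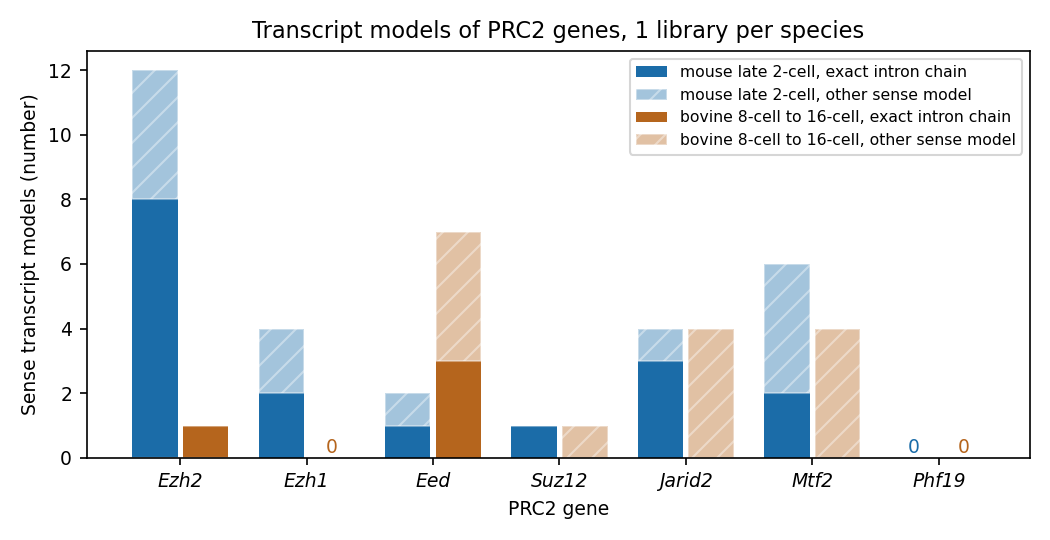
Number of sense transcript models (vertical axis) for each PRC2 gene, mouse left of bovine, with exact intron-chain matches solid and other sense models hatched. Ezh2 stands at 12 models in mouse against 1 in bovine, and Eed at 2 in mouse against 7 in bovine.

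Exact matches, which share every intron with a transcript of the authors' reference, were 17 of 29 models in mouse (58.6%, 95% Clopper-Pearson interval 38.9% to 76.5%) and 4 of 17 models in bovine (23.5%, 6.81% to 49.9%). The share over all sense models was 55.4% in mouse and 44% in bovine, inside the members' interval in both libraries. Each of the 6 mouse genes with a model had an exact match, where 72.5% of all mouse genes did. In bovine 2 of 5, EZH2 and EED, had one, where 65.5% of all genes did. The intervals cover counting error only and treat models as independent draws, which models of 1 gene are not. Of the 17 exact mouse matches, 15 also carried a reference gene tag, as did 2 of the 4 in bovine. In the whole mouse library 12.6% of the tagged exact matches with a GENCODE intron chain had both ends at the annotated base, against 0.578% of the untagged ones. Among tagged exact models, all 8 of Ezh2, both of Ezh1 and all 3 of Jarid2 ended at the base where the RefSeq gene ends, and 0 of the 2 of Mtf2 did. Among untagged models, both of Ezh1 and the exact Suz12 model also ended at that base. The ends are given as deposited and are not read as measured ends.

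Ezh2 encodes the methyltransferase that predominates in dividing cells. It lies on the minus strand of mouse chromosome 6 (chr6:47530139-47595341, GRCm38/mm10). Its 12 mouse models had 12 different intron chains, built from 3 alternative internal exons and 3 kinds of first exon. The internal choices all fell in coding exons, and their sequences are shown because each choice adds or removes whole codons. They are read from GENCODE M21 transcripts, 5′ to 3′ on the minus strand, and capitals mark the bases that the shorter form leaves out. Exon 14 (chr6:47541845-47541970) was kept or left out whole, so it has no capitals.

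Ezh2 exon 14: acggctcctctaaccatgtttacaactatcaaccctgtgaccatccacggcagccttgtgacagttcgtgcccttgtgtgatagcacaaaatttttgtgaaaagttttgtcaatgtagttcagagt

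Ezh2 exon 3: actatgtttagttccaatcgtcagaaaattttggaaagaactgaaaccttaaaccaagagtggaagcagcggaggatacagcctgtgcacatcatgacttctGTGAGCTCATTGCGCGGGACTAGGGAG

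Ezh2 exon 8: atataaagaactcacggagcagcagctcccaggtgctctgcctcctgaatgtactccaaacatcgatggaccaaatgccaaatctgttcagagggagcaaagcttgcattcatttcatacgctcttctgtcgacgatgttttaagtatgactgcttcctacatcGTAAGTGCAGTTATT

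Exon 14 is 126 bp long, or 42 codons, and was absent from 6 of the 12 models and present in the other 6. Exon 3 (chr6:47576536-47576664) was 129 bp in 7 models and 102 bp in 5, a difference of 27 bp or 9 codons. Exon 8 (chr6:47551717-47551895) was 164 bp in 8 models and 179 bp in 4, a difference of 15 bp or 5 codons. The capital stretches of exons 3 and 8 both begin with GT, the letters with which most introns begin. Exon 14 was absent from 3 of the 8 tagged and 3 of the 4 untagged models, and the 179-bp form of exon 8 was in 4 of 8 tagged and 0 of 4 untagged models.

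The 3 choices can be combined in 8 ways, and 7 of them were seen. The combination with 129 bp, 164 bp and no exon 14 was in 3 models, the most of any. The combination of the 102-bp exon 3, the 179-bp exon 8 and no exon 14 was in none. Of the 7 combinations seen, 4 were in no complete coding transcript of Ezh2 in GENCODE. All 7 were in tagged exact matches, so each is also in a transcript of the authors' reference. The bovine EZH2 model (chr4:112024327-112081391, bosTau9, minus strand) had 20 exons and a spliced length of 2600 bp. It held exons of 129, 164 and 126 bp at the places of exons 3, 8 and 14. All 18 of its internal exons had the same length, in the same order, as those of the annotated mouse transcript.

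**Figure D2:**
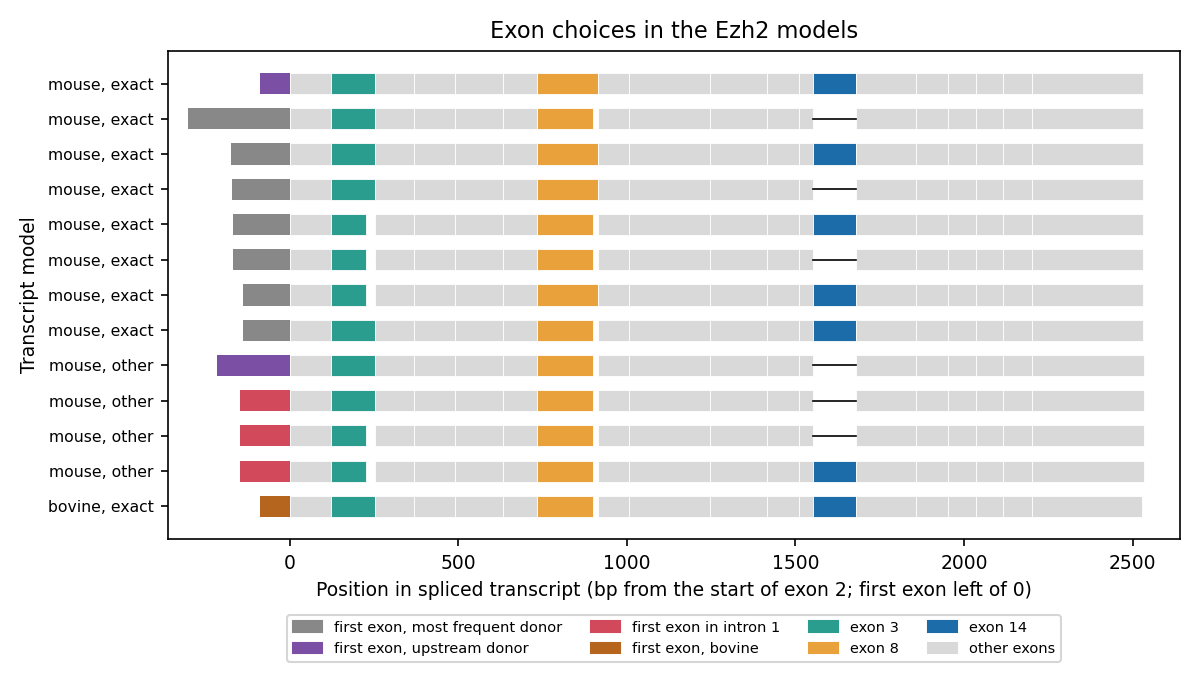
The 12 mouse Ezh2 models and, below them, the bovine EZH2 model, drawn to scale in spliced bp with first exons left of 0 and introns removed. Exon 14 is absent (thin line) from 6 of the 12 mouse models, exon 3 is shorter in 5 and exon 8 longer in 4, while the bovine model keeps exon 14.

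All 12 mouse Ezh2 models kept an open frame from the annotated start codon in exon 2 to the annotated stop. The frames were 695 to 751 codons long, where the annotated coding region has 746. They numbered 751 codons in 2 models, 746 in 1, 742 in 1, 737 in 2, 709 in 1, 704 in 3 and 695 in 2. A whole GENCODE coding chain, with the start codon, the stop codon and every intron between them identical, was held by 5 of the 12. The first exons differed ahead of that start codon. The most frequent first-exon donor was used in 7 models, all tagged, and a donor further upstream in 2. The remaining 3, all untagged, began in a 147-bp exon of intron 1 (chr6:47580829-47580975) that overlaps no exon of GENCODE or of an exact match. It lies 14366 bp inside the outermost annotated start, and its 3 models differed in exons 3 and 14. One untagged model with the upstream donor started 57 bp ahead of the outermost annotated start. The 4 untagged models ended at 47530271 and the 8 tagged ones at 47530274.

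Ezh1 encodes the methyltransferase that can take the place of EZH2 and is better known from non-dividing cells. The gene lies on the minus strand of mouse chromosome 11 (chr11:101191115-101226463). Of its 4 models 2 were exact matches of 21 exons, and the other 2 began in first exons outside GENCODE and the exact matches. One of these was 88 bp long (chr11:101224965-101225052), 1411 bp inside the annotated start, and the other 70 bp (chr11:101219082-101219151), 7312 bp inside. From an annotated start codon, an open frame reached the annotated stop in 3 models, with 750, 747 and 747 codons against 750 annotated. The models with 747 codons had an exon 3 of 126 bp in place of 121 bp. Their frame began at a different annotated start codon, which lies in that exon. The model with the 88-bp first exon also lacked exon 6 (chr11:101213724-101213844), whose length of 121 bp is not a multiple of 3. Its sequence is given as the one skipped exon of a PRC2 methyltransferase here that moved the frame.

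Ezh1 exon 6: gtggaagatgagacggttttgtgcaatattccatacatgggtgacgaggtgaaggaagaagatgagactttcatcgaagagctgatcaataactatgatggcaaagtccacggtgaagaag

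Without these bases the frame from the annotated start ended after 126 codons, with its stop 1690 bp ahead of the last exon junction. The longest frame of that model had 584 codons and reached the annotated stop.

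Eed encodes the WD40 protein that recognises the methylated histone and stimulates the enzyme. Both mouse models, on the minus strand of chromosome 7, had 12 exons and began at the same base, 371 bp inside the annotated start. The exact match held the whole coding chain of 441 codons. The other differed in exon 10 (chr7:89956255-89956413), which was 70 bp in place of 159 bp. Capitals mark the 89 bases left out, which again begin with GT.

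Eed exon 10: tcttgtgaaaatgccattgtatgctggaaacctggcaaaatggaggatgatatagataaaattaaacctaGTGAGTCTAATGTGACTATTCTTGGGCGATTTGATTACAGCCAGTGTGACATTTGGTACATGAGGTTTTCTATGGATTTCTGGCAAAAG

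This change is not a multiple of 3. The frame from the annotated start ended after 367 codons, 6 bp ahead of the last exon junction.

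Bovine EED had 7 models, the most of any PRC2 gene in that library (chr29:9265439-9295980, minus strand). Exact matches numbered 3, with 12, 13 and 14 exons. The 12-exon form had 10 internal exons, and all 10 had the length and order of the annotated mouse exons. The 13-exon form added a 75-bp exon, a multiple of 3, and the 14-exon form a further exon of 85 bp, which is not. Neither length occurs among the annotated mouse Eed exons. A further model lacked the exons of 92, 134 and 106 bp and the added ones, 5 exons and 492 bp fewer than the longest form. The other 3 models ended early, 2 in a 318-bp last exon and 1 in a 417-bp last exon. One of those with the 318-bp last exon began in a 278-bp first exon (chr29:9295113-9295390) outside the exact matches, 590 bp inside their start. An unannotated first exon, by exact matches alone, was thus found for 1 of the 2 bovine genes that could be examined, where 18% of all such bovine genes had one. The same measure gave 4 of 6 genes in mouse, where 17.4% of all genes had one.

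Suz12 encodes the scaffold that holds the core together. Its mouse model was an exact match of 16 exons and 4049 bp on the plus strand of chromosome 11 (chr11:79993430-80034123). It began 324 bp inside the annotated start and 110 bp after the first coding base, so it lacked the annotated start codon. Its longest frame had 664 codons, against 741 annotated, and reached the annotated stop. The model held 95.1% of the annotated coding bases. The bovine SUZ12 model (chr19:18156871-18196342, minus strand) also had 16 exons, with a spliced length of 4077 bp, and all 14 internal exons had the mouse lengths in order.

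Jarid2 encodes an accessory subunit related to the JmjC family, which binds PRC2 and nucleosomes. Its 4 mouse models, on the plus strand of chromosome 13, varied ahead of the coding region and not within it. They used 4 different first-exon donors, in first exons of 161, 115, 646 and 98 bp, and all 4 held the whole coding chain of 1234 codons. The model with the 98-bp first exon was no exact match and began at 44729680, which was 1094 bp ahead of the exact matches but within an annotated exon. The 4 bovine JARID2 models, on chromosome 23, had 9, 7, 5 and 3 exons and spliced lengths of 2625, 2259, 839 and 324 bp. None was an exact match, and each had its own first exon. Their internal exons had mouse lengths in 6 of 7, 5 of 5, 3 of 3 and 0 of 1 cases, set against the closest mouse model. The largest internal exon was 1039 bp in bovine and 1033 bp in mouse, 6 bp apart. In the annotated mouse transcript 11 exons follow it, whereas no bovine model had more than 1 exon after it.

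Mtf2 encodes a Polycomb-like protein whose Tudor domain reads another histone mark and which binds CpG-rich DNA. The gene lies on the plus strand of mouse chromosome 5 (chr5:108065674-108109004). Of its 6 mouse models, 4 began in a 140-bp first exon (chr5:108060724-108060863), 4950 bp upstream of the outermost annotated start. That first exon overlaps no exon of GENCODE or of an exact match. These 4 models lacked exon 1 and with it the annotated start codon. The 2 exact matches, of 4350 and 4498 bp, held that codon. They began 14 bp upstream of the outermost GENCODE start, at the base where the RefSeq gene begins. In both, the frame from the annotated start codon ended after 4 codons, inside an added exon of 202 bp. That exon is part of the matched reference transcripts and is added only against the annotated GENCODE transcript. Exons of 148 and 109 bp were also added in some of the models, and 1 model consisted of 2 exons and 502 bp. The other 5 models all had a longest frame of 491 codons that began downstream and reached the annotated stop, where the annotated coding region has 593 codons.

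**Figure D3:**
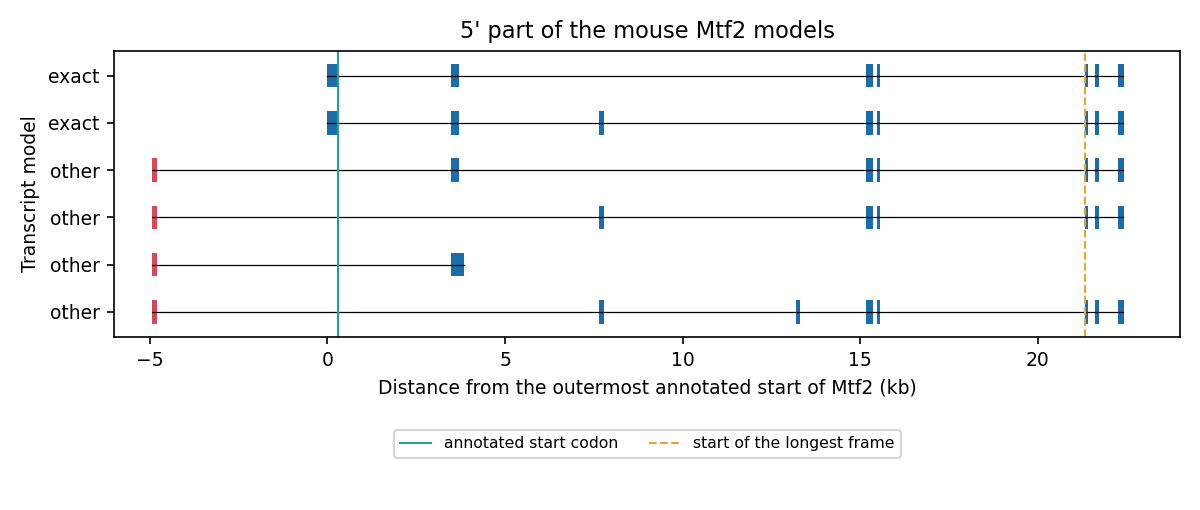
Exons of the 6 mouse Mtf2 models near their 5′ end, by distance in kb from the outermost annotated start, with unannotated first exons in red and other exons in blue. The 4 models that are no exact match begin 4950 bp upstream and lack the exon with the annotated start codon, and the frame of 491 codons begins at the dashed line.

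Exon 3 of Mtf2 used a donor 4 bp beyond that of the annotated transcript in every mouse model that held the exon. The exon is shown with the 4 additional bases in capitals (chr5:108081137-108081222).

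Mtf2 exon 3: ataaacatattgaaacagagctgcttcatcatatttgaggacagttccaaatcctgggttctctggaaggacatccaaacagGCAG

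All 5 mouse models with this exon had the 86-bp form, and so did all 4 bovine MTF2 models by length. In GENCODE 1 of the 11 Mtf2 transcripts with the exon had 86 bp, the other 10 had 82 bp, and none of the 3 labelled protein coding had 86 bp. Both exact mouse matches held the 86-bp form, so it is also in transcripts of the authors' reference. The 4 bovine models, on the minus strand of chromosome 3, all began at 50402567 and had 15 or 16 exons. All 4 carried class code n, which marks a retained intron against the reference transcript. Their internal exons had the lengths of the closest mouse model, in order, in 13 of 14, 13 of 13, 12 of 13 and 13 of 14 cases. One had an added exon of 132 bp. Another had an exon of 399 bp and a last exon of 1011 bp where the rest had a last exon of 2796 bp. A further one had 136 bp in place of 105 bp, a form that 1 GENCODE Mtf2 transcript holds and 0 mouse models here did. The 3′ ends differed in mouse as well, with a last exon of 2419 bp in the exact matches and of 656 or 930 bp in the long models from the upstream exon.

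Across the 6 mouse genes, 9 models of 3 genes (Ezh1, Ezh2 and Mtf2) began in 4 distinct unannotated first exons. By gene this was 3 of 6, where 22% of all mouse genes had such a model. Those of Ezh1 and Ezh2, 5 models, kept an annotated start codon, and the 4 of Mtf2 did not. A start more than 100 bp upstream of the outermost annotated one was found for 4 of 29 models, all of Mtf2, where 8.74% of all models had one.

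**Figure D4:**
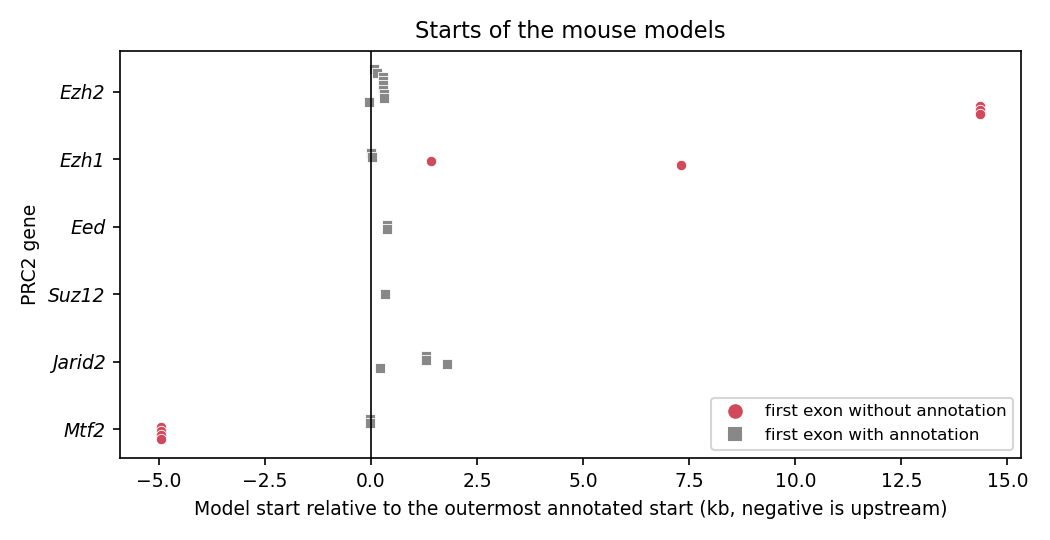
Start of each of the 29 mouse models (horizontal axis, kb from the outermost annotated start, negative upstream) by gene. Unannotated first exons lie 14366 bp inside Ezh2, 1411 and 7312 bp inside Ezh1 and 4950 bp upstream of Mtf2.

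An internal exon was skipped, added or resized against the annotated transcript in 20 of the 29 mouse models, where 40.2% of spliced models of coding genes had such a change. Ezh2 made up 11 of these 20. The comparison was with 1 GENCODE transcript per gene, so exact matches of other reference transcripts also count as changed. Such exact matches of Ezh1, Ezh2 and Mtf2 are among the 20. A skipped exon was found in 7 of 29, 6 of them Ezh2 models without exon 14, where the share over all models was 21.7%. A whole GENCODE coding chain was held by 13 of the 29 models, where 51.2% of models of coding genes held one. By gene, 4 of 6 had at least 1 such model, where 75.9% of coding genes did, and Suz12 and Mtf2 had none. The Suz12 model, an exact match of the reference intron chain, was not counted because it began after the annotated start codon. An annotated start codon was in 24 of the 29 models, and in 20 the frame was open from it to the annotated stop. No share over all models was computed for either count. These 20 were 12 of Ezh2, 4 of Jarid2, 3 of Ezh1 and 1 of Eed.

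**Figure D5:**
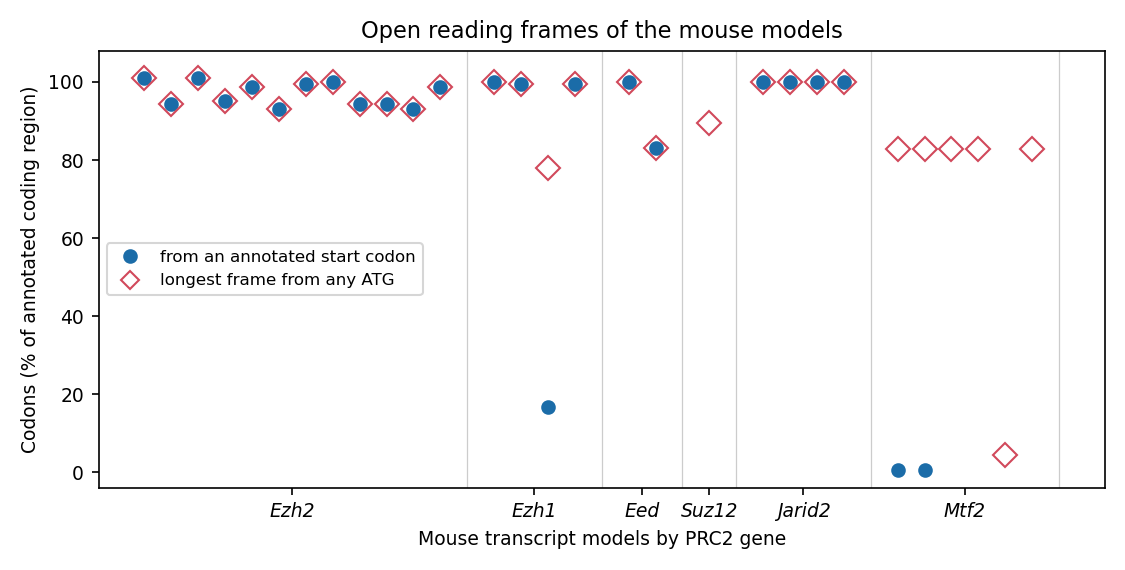
Codons of the open reading frame of each mouse model, as a percentage of the annotated coding region, from an annotated start codon (filled points) and from any ATG (open diamonds). The frames of Ezh2 and Jarid2 stay near or at 100%, the skip of exon 6 in Ezh1 leaves 16.8% from the annotated start, and 5 of the 6 Mtf2 models reach 82.8% from a downstream ATG, while the 2-exon model reaches 4.38%.

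Other Polycomb genes were examined from lists chosen by role. Of all protein-coding mouse symbols 53.5% had a sense model, and no such share was computed for bovine. Of 10 further PRC2 subunits and partners, 8 had a model in mouse and 9 in bovine, with 23 models in mouse and 33 in bovine. The histone-binding subunits Rbbp4 and Rbbp7 had 4 and 2 models in mouse and 3 and 4 in bovine. Aebp2, an accessory subunit of the JARID2-containing form, had 5 in mouse and 2 in bovine, and Phf1, the third Polycomb-like gene, had 3 in mouse and 6 in bovine. Eloc, which encodes elongin C, had 5 in mouse and 4 in bovine, Elob, which encodes elongin B, had 1 in mouse and 4 in bovine, and Lcor had 1 in mouse and 5 in bovine. Ezhip, an inhibitor of the enzyme, had 2 models in mouse and 0 in bovine. Epop and Lcorl had 0 in mouse, against 1 and 4 in bovine. Of 21 PRC1 genes, whose complex ubiquitinates histone H2A, 17 had a model in mouse and 18 in bovine. Kdm2b, which recruits one form of PRC1 to CpG islands, had 8 models in mouse and 1 in bovine, whereas Bcor, a subunit of that form, had 2 in mouse and 7 in bovine. Pcgf6 had 4 in mouse and 8 in bovine. Rnf2, Bmi1, Pcgf1, Pcgf3, Pcgf5, Cbx8, Phc1, Phc2, Scmh1, Rybp, Yaf2 and L3mbtl2 had 1 to 4 models each in mouse and 1 to 6 each in bovine. No model was found for Ring1 in either library, for Pcgf2, Cbx6 and Phc3 in mouse, or for Cbx2 and Cbx7 in bovine. The demethylases of the same lysine, Kdm6a and Kdm6b, had 3 and 2 models in mouse and 2 and 1 in bovine. Their Y-linked relative Uty had 5 in mouse and 0 in bovine. Whether the bovine build holds a Y chromosome was not examined, so the 0 for Uty is not read as a difference between species.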

How the data were processed

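For each library the authors deposited StringTie models, per the file headers. The values used are exon start and end positions in bp, with a gene name, the closest reference transcript and a class code. The deposited files hold no read count or score. Builds are mm10 and bosTau9 per the submitters' processing notes. The sources used here do not give the aligner, filters or versions, and they do not name the reference annotation. The closest reference transcripts of the PRC2 models carry RefSeq identifiers.

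From these, sense models of the 7 genes were counted and set beside all named genes of the same library. Mouse structures were compared with GENCODE M21 on the same build, and frames were read from its transcript sequences at model exons (python 3.11.15, numpy 2.4.6). Bases outside annotated transcripts, which include the unannotated first exons, had no sequence here, so a start codon within them could not be seen. The annotated transcript of a mouse gene is its principal complete coding transcript in GENCODE. A first exon was unannotated when it shared no base with an exon of GENCODE or of an exact match on the same strand. Further transcripts of the authors' reference were not compared. For bovine, exact matches alone served, and other bovine structures were described by exon length. In bovine, the count of unannotated first exons was kept to genes with an exact match. The shares of exact matches and of models outside the sense classes carry 95% Clopper-Pearson intervals (scipy 1.17.1). The other shares carry none. The structure comparison was tested on simulated data and recovered all 200 models.

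With 1 library per species there is no replicate, test or within-batch value, and the labels put both in batch 1. All 7 genes are named, and the other Polycomb genes are given as with or without a model, with counts for some. One gene of the PRC1 list is not reported here. The members and lists were chosen with earlier results of these data known.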

Additional observations from a re-analysis of the deposited data

Results flagged for a closer look

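Outside the sense classes, 4 mouse models carried the name of a PRC2 gene, and no bovine model did. They are given because the counts above leave them out. They were 12.1% of the 33 mouse models with a PRC2 gene name (95% Clopper-Pearson interval 3.4% to 28.2%), and the share over all mouse models with a gene name, 13.9%, lies inside that interval. In bovine the count was 0 of 17 (0% to 19.5%), and the share over all bovine models with a gene name, 7.81%, also lies inside the interval. The 0 is therefore not read as a difference between species. In mouse, a 2-exon antisense model of 384 bp lay across Suz12 (chr11:80007803-80011547). A pair of unspliced antisense models, of 452 and 462 bp, lay in introns of Jarid2, and an unspliced model of 252 bp lay in an intron of Ezh1 on the strand of the gene.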

How the results depend on the processing

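Of 28 values recomputed under another choice, 22 gave the same or a similar count and 6 moved. Counting exact matches only gave 17 models in mouse, against 29, and 4 in bovine, against 17, and left 2 bovine genes in place of 5. This follows from counting fewer classes. Requiring a start more than 100 bp upstream left 4 mouse models in place of 7. The next alternatives were chosen after seeing the data. Counting open frames in place of identical coding chains gave 20 mouse models in place of 13. Counting bovine genes with no exact match raised the models whose first exon was unannotated to 10, against 1, since any first exon of such a gene lacks an exact match. No paired analysis was possible because each species had 1 library. Depth is unknown, so no count of models measures abundance, and the 17 bovine models of 5 genes leave wide intervals on any share.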
